A study of Homo sapiens with 18 samples.

Results

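The E2F transcription factors and their dimerization partners were examined as a family: E2F1 to E2F8, TFDP1 and TFDP2, which are 10 of the 55765 gene symbols in the deposited table. They were taken by symbol, by a rule that uses no measured value. The study sequenced poly(A) RNA of G401, a malignant rhabdoid tumour cell line, in 6 groups of 3 biological replicates (18 libraries). The control line (WT) was edited at the safe harbour site AAVS1, and 2 single clones (E1 and F2) carry biallelic RB1 deletions made with CRISPR/Cas9. For 11 days the cells were given tazemetostat at 10 µM, which blocks the H3K27 methyltransferase EZH2, or as much DMSO, the solvent. Cas9 editing is thus common to every group, and the clones stand for RB1 loss through 1 clone each, so that a difference between clones and one due to RB1 cannot be told apart in either clone alone. The comparisons ask how EZH2 inhibition changes the family and whether that change differs without RB1.

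E2F proteins bind promoters of genes needed for DNA replication and cell division. E2F1, E2F2 and E2F3 are activators that the retinoblastoma protein RB1 holds in check, and E2F4 and E2F5 act mostly as repressors together with the RB1 relatives RBL1 and RBL2. E2F6 represses without binding pocket proteins, as a partner of Polycomb-type complexes. E2F7 and E2F8 are atypical repressors that need no dimerization partner, whereas the others bind DNA as dimers with TFDP1 or TFDP2. Several family genes are themselves E2F targets.

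Values are normalized counts, which are reads divided by the authors' size factor for the sample. Recovered depth was 25709489 to 39314860 reads per library, and each member had between 159 and 9735 reads in every library, so that all 10 passed the filter on low values. SMARCB1, whose loss defines rhabdoid tumours, had 0 reads in all 18 libraries. The mesenchymal marker VIM was at 27410 to 69990 normalized counts. The blood markers PTPRC, CD3E and HBB had at most 2 reads in any library, and the sum of 5 blood markers was at most 25.9 normalized counts. The epithelial markers EPCAM, CDH1 and KRT5 had a higher sum with tazemetostat in each line. It was 270 in WT with DMSO and 1135 with tazemetostat, 25.1 and 651 in E1, and 165 and 2872 in F2. With tazemetostat most of it was KRT5, which was at 0 in every DMSO library. CDH1 was at 256.2, 15.95 and 148.7 with DMSO in WT, E1 and F2, and at 353.1, 139.8 and 265.5 with tazemetostat. EPCAM had at most 19 reads in any library, and its group mean was lower with tazemetostat in each line. Of the endothelial markers, CDH5 and VWF summed to at most 65.6 in a library and were higher with tazemetostat. The part of these markers in the results below was not tested. RB1 transcript was 2828, 2687 and 2565 normalized counts in WT with DMSO, against 505 to 780 in E1 and 804 to 860 in F2. RB1 in the clones lay below WT by -2.08 ± 0.11 and -1.68 ± 0.11 on the log2 scale (SE; limma adjusted p 5.7e-11 and 2.3e-09). The 3 E1 DMSO libraries differed more from each other than those of other groups: the chi-square per gene of their read counts was 29 to 59.8, compared with 2.36 to 21.5 elsewhere. In bulk RNA, fewer cells of a kind and less RNA per cell cannot be told apart.

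Because family genes can be bound by E2F proteins, the 250 bases before the transcription start were searched for E2F words and for the CHR word that the MuvB complex binds. RefSeq (GRCh38.p14) gave an entry for 8 of the 10 members, all but E2F5 and E2F8. Searched on both strands were the E2F words TTTCGCGC, TTTGGCGC, TTTCCCGC and TTTGCCGC and the CHR words TTTGAA and TTCGAA. Only exact words before the first listed start of each gene were counted, so other starts and bases after the start are not covered. In E2F3, the member with both, they did not overlap. Of all 27305 promoters of this length, 2.79% held an E2F word and 14.6% a CHR word, and of the 10140 that belong to tested genes 4.35% and 9.36% did. E2F1, E2F2, E2F3 and TFDP1 held an E2F word, E2F3 alone among the 8 held a CHR word, and E2F4, E2F6, E2F7 and TFDP2 held neither. The promoters of 2 activators are shown with the E2F words in capitals, beside that of E2F7, the member with the largest rise, which has no capitals. E2F1 lies on the minus strand at chr20:33686386-33686635, E2F2 on the minus strand at chr1:23531234-23531483 and E2F7 on the minus strand at chr12:77065570-77065819. These are windows of the RefSeq build, not of hg19, which the submitters' notes name.

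E2F1: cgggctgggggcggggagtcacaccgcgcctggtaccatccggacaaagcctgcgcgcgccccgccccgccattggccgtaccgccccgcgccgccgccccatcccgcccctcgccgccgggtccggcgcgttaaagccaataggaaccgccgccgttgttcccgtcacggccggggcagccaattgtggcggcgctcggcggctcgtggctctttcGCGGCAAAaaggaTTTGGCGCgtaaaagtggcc

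E2F2: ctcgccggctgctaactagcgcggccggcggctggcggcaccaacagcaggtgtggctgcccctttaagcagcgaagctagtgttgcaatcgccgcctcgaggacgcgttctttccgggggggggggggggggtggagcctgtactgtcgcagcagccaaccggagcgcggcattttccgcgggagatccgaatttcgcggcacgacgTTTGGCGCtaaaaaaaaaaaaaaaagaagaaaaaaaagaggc

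E2F7: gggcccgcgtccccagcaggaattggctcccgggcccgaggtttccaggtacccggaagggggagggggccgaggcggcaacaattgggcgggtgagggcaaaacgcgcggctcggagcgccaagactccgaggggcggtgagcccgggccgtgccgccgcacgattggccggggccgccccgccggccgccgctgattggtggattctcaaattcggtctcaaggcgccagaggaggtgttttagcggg

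The E2F1 words lie 33 to 26 and 20 to 13 bases before the start, and the E2F2 word 42 to 35 bases before it. A match of letters is a description and not a bound site. Whether holding a word goes with a change in level was not tested.

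Levels of different members were compared per kilobase of exon, with exon lengths from GENCODE v29. The length is the union of all annotated exons of a gene, such as 3.74 kb for TFDP1 and 11.9 kb for TFDP2. Which transcripts the cells used was not measured, so the order of members and the ratios between them depend on this length. TFDP1 was highest in every group, from 1342 ± 83 normalized counts per kb (SD, n = 3) in WT with tazemetostat to 2418 ± 46 in E1 with tazemetostat. E2F4 came second everywhere, at 795 to 899 as group means. In WT with DMSO the order below them was E2F1 (456 ± 5.2), E2F3 (398 ± 3.2), E2F8 (294 ± 12), E2F5 (267 ± 16), E2F6 (246 ± 9.7), E2F2 (214 ± 14), TFDP2 (213 ± 9.2) and E2F7 (78.6 ± 2.9). The libraries of E2F8 and E2F5 overlapped, as did those of E2F5 and E2F6 and those of E2F2 and TFDP2, so these neighbours are not set apart. E2F7 was the lowest member in WT and F2 with DMSO but ranked behind TFDP1 and E2F4 alone in F2 with tazemetostat, at 439 ± 10. E2F2 had the lowest mean in all 3 tazemetostat groups and in E1 with DMSO, although in F2 with tazemetostat its libraries overlapped those of TFDP2. E2F4 varied least across the groups, with group means that differed 1.13-fold, and E2F8, E2F7 and E2F2 varied most, with 6.03-fold, 5.90-fold and 5.71-fold.

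**Figure D1:**
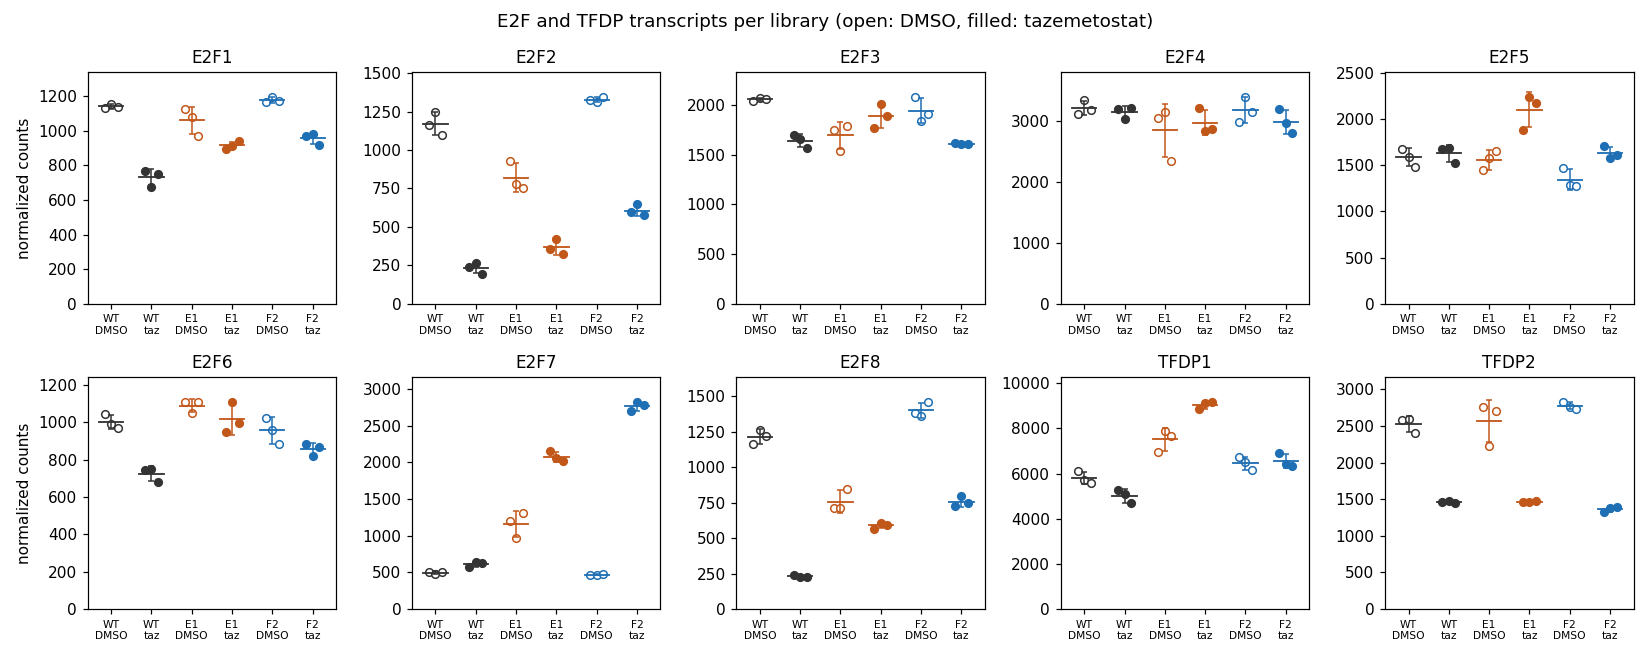
Normalized counts (y axis, from 0) of the 10 members in each library, by line and treatment (x axis). Points are libraries (open for DMSO, filled for tazemetostat), horizontal lines are group means and error bars are SD (n = 3). E2F2, E2F8 and TFDP2 are lower with tazemetostat in each line, and E2F7 is higher with it in each line, least so in WT.

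The threshold for a tazemetostat effect was a limma adjusted p under 0.05 together with a log2 change, on log2(value + 1), of at least 1 in size. In WT, 2 of 10 members passed, E2F2 and E2F8, and both fell. All tested genes passed at 21.3% in either direction, which is near the share of members, and 6.77% of them fell past the threshold. By adjusted p alone 8 of 10 passed, against 64.2% of all tested genes. In E1, E2F2 alone passed, where 15.1% of genes did, and 7 members passed by adjusted p alone against 46.8%. In F2, E2F2 and TFDP2 fell and E2F7 rose, where 17% of genes passed, and 7 members passed by adjusted p alone against 52.2%. WT, E1 and F2 had a median log2 change over the 10 members of -0.40, -0.01 and -0.21, while that of all tested genes was 0.03, 0.02 and 0.02. Bringing all libraries to 1 equal total moved the median of all genes by -0.15 in WT, and with equal totals the WT values of E2F3, E2F4, E2F6 and TFDP1 were -0.48, -0.18, -0.62 and -0.36.

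Among the activators, E2F2 had 1160, 1249 and 1101 normalized counts in WT with DMSO and 238, 263 and 196 with tazemetostat. In E1 it had 927, 782 and 754 with DMSO and 356, 421 and 325 with tazemetostat, and in F2 1325, 1311 and 1347 against 600, 646 and 574. The groups did not overlap in any line, and the treated WT libraries were the lowest of all 18. The log2 change of E2F2 was -2.34 ± 0.11 (SE) in WT, a fitted 5.05-fold fall (limma adjusted p 1.3e-12). It was -1.16 ± 0.11 in E1 and -1.13 ± 0.11 in F2, fitted 2.24-fold and 2.19-fold falls (adjusted p 4.9e-08 and 6.2e-08). E2F1 had 1131, 1155 and 1136 normalized counts in WT with DMSO and 767, 677 and 752 with tazemetostat. Its log2 change of -0.64 ± 0.07 in WT was under the fold limit although its groups did not overlap (limma adjusted p 9.4e-08), and it was -0.21 in E1 and -0.30 in F2 (adjusted p 0.015 and 0.00088). Without E1 DMSO replicate 1 the value in E1 was -0.16 with an adjusted p of 0.074. E2F3 differed by less than the fold limit in each line, with -0.33 ± 0.07 for WT, 0.15 ± 0.07 for E1 and -0.27 ± 0.07 for F2 (limma adjusted p 0.00035, 0.066 and 0.0024).

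Among the repressors E2F4, E2F5 and E2F6, the smallest change with tazemetostat in each line was that of E2F4. E2F4 lay between 2349 and 3404 normalized counts over all 18 libraries, and its treated and DMSO libraries overlapped in each line. Its log2 changes were -0.03, 0.07 and -0.09 in WT, E1 and F2, each with SE 0.09 (limma adjusted p 0.79, 0.54 and 0.44). The lowest E2F4 value was that of E1 DMSO replicate 3, at 2349 against 3051 and 3146 in the other libraries of that group, and without it the change in E1 was -0.06. E2F5 had 1443, 1582 and 1651 normalized counts in E1 with DMSO and 1881, 2241 and 2176 with tazemetostat, a log2 change of 0.43 ± 0.08 (limma adjusted p 0.00022). In F2 the E2F5 change was 0.29 ± 0.08 (adjusted p 0.006), and in WT it was 0.04 ± 0.08 (adjusted p 0.67), or -0.11 with equal library totals. E2F6 had 1046, 993 and 968 normalized counts in WT with DMSO and 747, 751 and 679 with tazemetostat, a log2 change of -0.47 ± 0.07 (limma adjusted p 2.3e-05). In E1 and F2 the E2F6 changes were -0.10 and -0.15, with overlapping groups (adjusted p 0.28 and 0.091).

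The atypical repressors E2F7 and E2F8 went different ways with the inhibitor: E2F7 was higher and E2F8 lower with it in each line. Past the threshold were E2F7 in F2 alone and E2F8 in WT alone. E2F7 had 469, 457 and 479 normalized counts in F2 with DMSO and 2697, 2822 and 2778 with tazemetostat, a log2 change of 2.56 ± 0.09 (SE) and a fitted 5.89-fold rise (limma adjusted p 5.7e-15). In E1 it had 1197, 971 and 1307 with DMSO and 2154, 2052 and 2014 with tazemetostat, a log2 change of 0.85 ± 0.09 that stayed under the fold limit (adjusted p 8.9e-08). In WT it had 503, 474 and 508 with DMSO and 576, 644 and 626 with tazemetostat, a log2 change of 0.31 ± 0.09 (adjusted p 0.0036). With equal library totals the WT value was 0.16, with an adjusted p of 0.12. The treated F2 libraries were thus the highest of all 18 for E2F7, followed by the treated E1 libraries.

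E2F8 had 1163, 1265 and 1223 normalized counts in WT with DMSO and 243, 229 and 225 with tazemetostat. The log2 change of E2F8 in WT was -2.38 ± 0.08 (SE), a fitted 5.21-fold fall (limma adjusted p 4e-15). In F2 E2F8 had 1381, 1365 and 1461 with DMSO and 724, 797 and 747 with tazemetostat, and in E1 713, 711 and 850 against 566, 608 and 595. The groups did not overlap in either clone, but the log2 changes of -0.89 ± 0.08 in F2 and -0.36 ± 0.08 in E1 were under the fold limit (limma adjusted p 8.8e-09 and 0.00077). Per kb, the ratio of E2F8 to E2F7 was 3.75 ± 0.28 (SD, n = 3) in WT with DMSO and 0.578 ± 0.057 with tazemetostat, 1.00 ± 0.10 and 0.434 ± 0.029 in E1, and 4.56 ± 0.08 and 0.416 ± 0.012 in F2. E2F8 was therefore the more abundant of the pair in DMSO in WT and F2, and E2F7 was the more abundant with tazemetostat in all 3 lines.

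**Figure D2:**
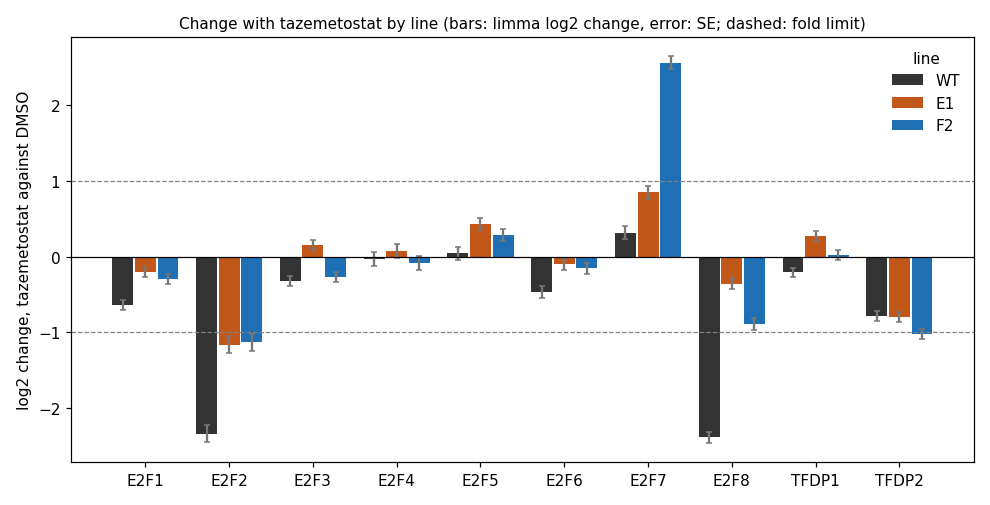
Log2 change with tazemetostat against DMSO (y axis) of each member (x axis) in WT, E1 and F2, from limma on log2(value + 1), drawn as bars with error bars of 1 SE. Dashed lines mark the fold limit of 1: E2F2 lies below -1 in each line, E2F8 in WT alone and TFDP2 in F2 alone, and E2F7 lies above 1 in F2 alone.

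Of the dimerization partners, TFDP2 was lower with tazemetostat in each line. It had 2585, 2601 and 2405 normalized counts in WT with DMSO and 1468, 1480 and 1454 with tazemetostat. In E1 the TFDP2 values were 2753, 2230 and 2705 against 1455, 1464 and 1475, and in F2 2827, 2757 and 2736 against 1320, 1380 and 1396. No treated library of TFDP2 reached the lowest DMSO library of any line, which was 2230. The log2 changes were -0.79, -0.80 and -1.02 in WT, E1 and F2, each with SE 0.07 (limma adjusted p 7e-09, 7.7e-09 and 1.7e-10), and F2 alone passed the fold limit. Without F2 tazemetostat replicate 1 the value in F2 was -0.998, under the fold limit. TFDP1 had 6098, 5707 and 5593 normalized counts in WT with DMSO and 5284, 5096 and 4678 with tazemetostat, and in E1 6950, 7906 and 7684 against 8849, 9113 and 9172. WT, E1 and F2 had TFDP1 log2 changes of -0.21, 0.27 and 0.02, each with SE 0.06 (limma adjusted p 0.0079, 0.0018 and 0.81). Without WT tazemetostat replicate 3 the WT value of TFDP1 was -0.16 (adjusted p 0.051), and with equal library totals the F2 value was -0.01. The ratio of TFDP1 to TFDP2 per kb was 7.29 ± 0.28, 9.45 ± 1.7 and 7.41 ± 0.23 with DMSO in WT, E1 and F2 (SD, n = 3), and 10.9 ± 0.61, 19.6 ± 0.26 and 15.3 ± 1.2 with tazemetostat.

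The activators E2F1, E2F2 and E2F3 together were at 1068 ± 20 normalized counts per kb in WT with DMSO (SD, n = 3) and 653 ± 23 with tazemetostat, at 902 ± 49 and 798 ± 33 in E1, and at 1090 ± 20 and 806 ± 20 in F2. The sum of E2F7 and E2F8 was 372 ± 10 and 154 ± 3.7 in WT, 367 ± 44 and 471 ± 7.7 in E1, and 413 ± 14 and 622 ± 19 in F2. With tazemetostat the sum of the atypical repressors was thus lower in WT and higher in both clones, and the libraries did not overlap in any line. Relative to the activators it was 0.349 ± 0.008 with DMSO and 0.236 ± 0.013 with tazemetostat in WT, 0.408 ± 0.056 and 0.591 ± 0.030 in E1, and 0.379 ± 0.015 and 0.771 ± 0.025 in F2.

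**Figure D3:**
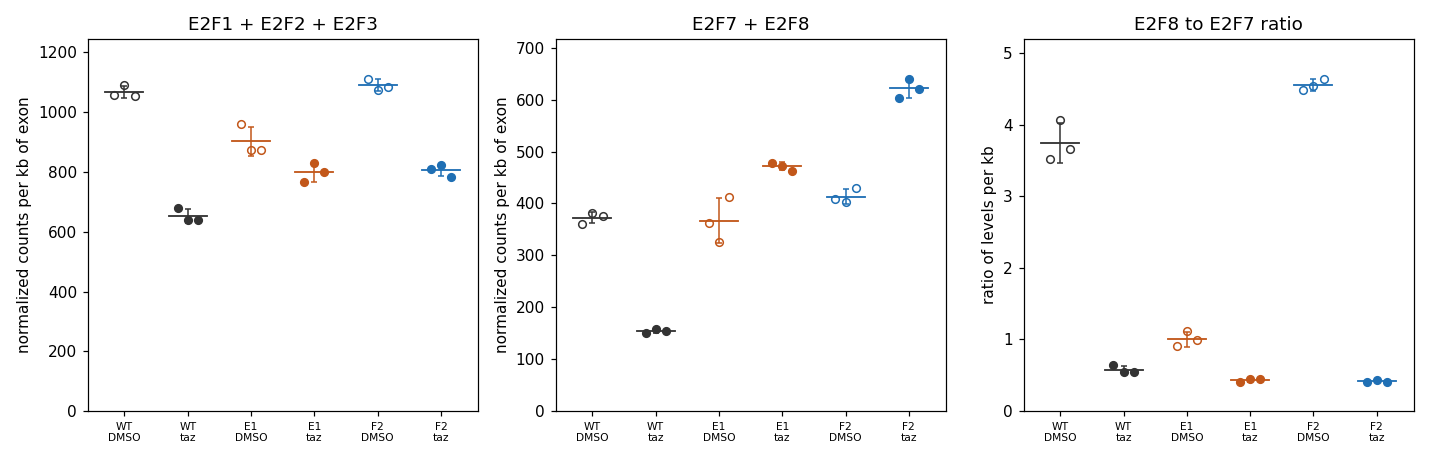
Left and middle, summed levels per kb of exon (y axis, normalized counts per kb) of E2F1, E2F2 and E2F3 and of E2F7 and E2F8; right, ratio of E2F8 to E2F7 per kb. Points are libraries (open for DMSO, filled for tazemetostat), lines group means and error bars SD (n = 3). The sum of E2F7 and E2F8 is lowest in treated WT, at 150 to 158, and highest in treated F2, at 603 to 640.

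Without the inhibitor, F2 and WT differed past the threshold in 0 of 10 members by limma, by edgeR and by DESeq2, where 2.98% of all tested genes differed. At an unadjusted p under 0.05 there were 3, and by adjusted p alone there was 1 by limma, against 20.2% of all genes, and 2 each by edgeR and DESeq2, which added E2F8 (edgeR adjusted p 0.043). The limma call was E2F5, with a log2 difference of -0.24 ± 0.08 (limma adjusted p 0.043). Blocking on replicate number gave E2F5 an adjusted p of 0.054. It was 0.11 to 0.17 without WT DMSO replicate 1 or 2, or without F2 DMSO replicate 2 or 3. For E2F2, E2F7 and E2F8 the differences of F2 from WT were 0.18, -0.08 and 0.20, with 95% intervals of -0.05 to 0.42, -0.26 to 0.10 and 0.04 to 0.36 (adjusted p 0.27, 0.56 and 0.067).

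E1 differed from WT in DMSO past the threshold in 1 of 10 members, where 5.04% of all genes did, and in 5 by adjusted p alone, where 23.2% did. The member past the threshold was E2F7, which was higher in E1 by 1.22 ± 0.09 on the log2 scale, a fitted 2.32-fold (limma adjusted p 3.9e-09). Leaving out any library of the 2 groups gave 1.122 to 1.336. E2F8 was lower in E1 by -0.69 ± 0.08 and E2F2 by -0.51 ± 0.11, and neither pair of groups overlapped (limma adjusted p 2e-06 and 0.0022). E2F3 differed by -0.28 and TFDP1 by 0.37 (limma adjusted p 0.0047 and 0.00025). Between the clones in DMSO, E2F7 alone passed, with E1 higher by 1.29 ± 0.09 (limma adjusted p 8.7e-10), where 7.56% of all genes passed. By adjusted p alone 6 members passed, against 37.1% of genes, among them E2F8 at -0.89 and E2F2 at -0.70 (adjusted p 3.7e-08 and 7.2e-05).

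Under tazemetostat, both clones had more E2F7 and E2F8 transcript than WT. E1 was higher in 2 of 10 members, E2F7 by 1.75 ± 0.09 and E2F8 by 1.34 ± 0.08 (limma adjusted p 1.6e-11 and 1.3e-10), where 11.3% of all genes passed. F2 was higher in 3 of 10 members, E2F7 by 2.17 ± 0.09, E2F8 by 1.70 ± 0.08 and E2F2 by 1.39 ± 0.11 (limma adjusted p 1.3e-12, 5.3e-12 and 8.6e-09), where 12.3% passed. Those shares count either direction, and 5.4% and 7.31% of all genes were higher past the threshold in E1 and F2. By adjusted p alone 8 members differed in E1 and 6 in F2, against 51.8% and 53.1% of all genes, and each of these was higher in the clone. E2F2 was higher in E1 by 0.66 ± 0.11 and TFDP1 by 0.85 ± 0.06 (limma adjusted p 7.5e-05 and 4e-09). E2F1 was higher by 0.33 in E1 and 0.39 in F2 (limma adjusted p 0.00049 and 7.7e-05). The WT libraries are shared by these comparisons of E1 and F2.

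Subtracting the tazemetostat log2 change of WT from that of a clone gives the response difference, which tests directly whether the response depends on the line. Against WT, E1 passed in 2 of 10 members, E2F8 at 2.025 ± 0.108 and E2F2 at 1.17 ± 0.16 (limma adjusted p 3.4e-10 and 1.4e-05), where 10% of all genes passed. F2 passed in 3 of 10, E2F7 at 2.25 ± 0.12, E2F8 at 1.49 ± 0.11 and E2F2 at 1.21 ± 0.16 (limma adjusted p 5.8e-10, 2e-08 and 1.5e-05), where 7.48% of genes passed. Those shares count either direction, and 4.79% and 4.82% of all genes passed with a higher value in E1 and F2. By adjusted p alone 8 members differed in E1 and 5 in F2, against 35.4% and 26.9% of all genes, all with a higher value in the clone. In E1 these included E2F7 at 0.54 ± 0.12, E2F3 at 0.48 ± 0.10 and TFDP1 at 0.48 ± 0.09 (limma adjusted p 0.0019, 0.00068 and 0.00045). E2F1 differed by 0.43 ± 0.09 in E1 and 0.34 ± 0.09 in F2, and E2F6 by 0.36 ± 0.10 and 0.31 ± 0.10 (limma adjusted p 0.0015 and 0.011 for E2F1, 0.011 and 0.034 for E2F6). For E2F6 in F2 the adjusted p was 0.058 to 0.087 without any 1 of 7 of the 12 libraries. For TFDP2 the difference in response did not pass, and the 95% intervals were -0.215 to 0.185 in E1 and -0.437 to -0.038 in F2 (limma adjusted p 0.92 and 0.074).

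The responses of the clones were also set against each other. E2F7 alone passed, with a response lower in E1 than in F2 by -1.71 ± 0.12 (limma adjusted p 1.1e-08), where 5.81% of all genes passed. By adjusted p alone 3 members differed, against 14.8% of genes. The others were E2F8 at 0.53 ± 0.11 and E2F3 at 0.42 ± 0.10 (limma adjusted p 0.002 and 0.0045). For E2F2 the difference between the clones was -0.03 with a 95% interval of -0.36 to 0.30 (adjusted p 0.93). The smaller E2F7 response in E1 started from a DMSO level of 1159 ± 171 normalized counts (SD, n = 3), against 469 ± 11 in F2, and ended at 2073 ± 72 against 2766 ± 63.

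The family was set beside 78 genes that are textbook E2F targets in the transition to S phase and in replication, all of which were tested. The list was drawn up with earlier results of these data known, so its counts are no independent support. In WT, 56 of 78 fell past the threshold with tazemetostat, where 6.77% of all tested genes fell. Their median log2 change was -1.25, with the largest falls in PRIM1, a primase subunit (-2.22), LMNB1, which encodes lamin B1 (-2.20), and GINS2, part of the replicative helicase (-2.09). RPA2 (-0.08), CCNE1 (0.02) and WEE1 (0.17) had the highest values and did not pass. In E1 and F2 none of the 78 passed by limma, edgeR or DESeq2, with median log2 changes of -0.14 and -0.28. At an unadjusted p under 0.05 there were 39 and 54. By limma adjusted p alone there were 32 (41%) and 49 (62.8%), against 46.8% and 52.2% of all tested genes. The response difference passed in 47 of 78 in E1 and 41 of 78 in F2, all with a higher value in the clone, where 4.79% and 4.82% of all genes did. E2F2 and E2F8, at -2.34 and -2.38 in WT, lay below every one of the 78 targets there. In E1 E2F2 (-1.16) and TFDP2 (-0.80) lay below the lowest target value of -0.60, and in F2 E2F2 (-1.13), TFDP2 (-1.02) and E2F8 (-0.89) lay below that of -0.83. This order is of estimates, and the gaps were not tested. In WT the SE was 0.11 for E2F2 and 0.09 for PRIM1, the lowest target. In F2 it was 0.08 both for E2F8 and for MCM6, the lowest target there. The share of cycling cells was not measured, and its part in these values was not tested.

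**Figure D4:**
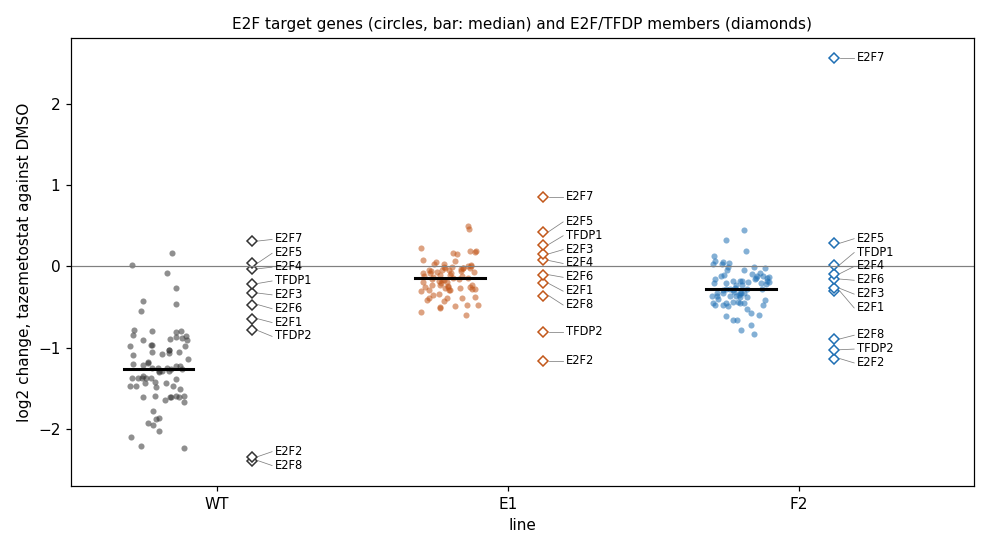
Log2 change with tazemetostat (y axis) in each line (x axis) for 78 E2F target genes (circles, black bar at the median) and the 10 members (diamonds, named). In WT the targets centre on -1.25 and E2F2 and E2F8 lie below all of them; in E1 and F2 the targets centre on -0.14 and -0.28. E2F7 lies above all of them in each line. At equal library totals its WT value is 0.16, but that scaling moves the targets too.

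Of 33 other genes of the RB and E2F pathway, 32 were tested. In WT 7 rose and 3 fell with tazemetostat, in E1 3 rose and in F2 5 rose, with no falls in the clones, where 21.3%, 15.1% and 17% of all genes passed. The falls in WT were FOXM1, a mitotic activator that works with MuvB (-1.46), CBX3 (-1.13), a partner of E2F6 complexes, and CCNF (-1.01). CDK6, a kinase that phosphorylates RB1, had at most 5.24 normalized counts in any DMSO library and at least 2483 in every treated one. CCND2, its cyclin partner, had 30.0 ± 0.63 normalized counts in WT with DMSO and 11140 ± 393 with tazemetostat, 9.35 ± 4.7 and 5118 ± 306 in E1, and 32.7 ± 4.5 and 6558 ± 146 in F2 (SD, n = 3). The CDK4 and CDK6 inhibitor gene CDKN2B rose by 3.26, 2.71 and 3.40 on the log2 scale in WT, E1 and F2, but it overlaps the antisense transcript CDKN2B-AS1, so its value is uncertain without the strand setting. The response difference of FOXM1 was 1.31 ± 0.09 for E1 and 1.34 ± 0.09 for F2 (limma adjusted p 4.4e-09 and 6.8e-09). Of 16 germline genes that E2F6 complexes keep silent in somatic cells, 2 reached a mean of 10 normalized counts, and no library had more than 32 reads of any of the 16. These were STAG3, which fell with tazemetostat in WT by 1.30 ± 0.41 on the log2 scale, and SYCE2, at -0.66 ± 0.47 there (limma adjusted p 0.0095 and 0.24). In the clones neither passed. MAEL, which was too low to be tested and is named after its values were seen, had at most 2 reads in an E1 DMSO library and 6.60 to 9.67 normalized counts with tazemetostat, and 1.02 to 4.15 against 8.32 to 13.1 in F2. In WT, MAEL had 0 to 1.75 normalized counts with DMSO and 2.46 to 2.96 with tazemetostat, at most 3 reads in a library.

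Of the members that passed the threshold in any comparison, the most similar genes over the 18 libraries were found by Pearson's r of log2(value + 1) among all tested genes outside the family. For E2F8 these included FANCD2 (0.991) and DNA2 (0.986), and for E2F2 they were ATP10A (0.983), ERBB3 (0.980) and ATP9A (0.980). For E2F7 they were ERAP1 (0.963), FOXS1 (0.953) and FUT11 (0.953), and for TFDP2 SETDB2 (0.987), RP11-255H23.2 (0.987) and CHD3 (0.986). Since the libraries fall into 6 groups and share treatment, line and depth, these values are descriptive. Rows beside the members carried few reads. The intronic transcript E2F3-IT1 had at most 10 reads in a library, TFDP3, a testis paralog of TFDP1, at most 1, and the pseudogene E2F4P1 had 0 in all.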

How the data were processed

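The deposited table holds a signal (normalized counts) per gene and sample, and its values show that the authors had scaled reads by 1 size factor for each library. Trim Galore 0.4.4, STAR 2.6.0a, HTSeq, DESeq2 and hg19 are named in the submitters' processing notes. The annotation and the strand setting of the counting are not given in the sources used here, so antisense overlap is uncertain although the kit was stranded. Values times the sample's factor (0.812 to 1.145) were whole reads for 100% of values (within 0.001 reads).

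Tests used limma 3.58.1 in R 4.3.3 across all 16154 genes with a mean of at least 10, on log2(value + 1) with a mean-variance trend. All 18 samples entered 1 fit of 6 group means, with 11 contrasts and Benjamini-Hochberg adjustment over all genes within each. The fit was also run on simulated counts with the same spread setting for every gene and group. The E1 DMSO libraries here differed more than the others, which that run does not cover. Alternatives included edgeR 4.0.16 and DESeq2 1.42.0 on recovered reads, which called 3466 and 3461 genes for tazemetostat in WT, against 3436 by limma. Named genes were the members, RB1, the 3 largest and smallest changes of each list, and the 3 genes most alike, of which not all are reported here. Members and lists were chosen with earlier results of these data known. Figures used matplotlib 3.10.9 in Python 3.11.15.

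Replicate numbers come from the sample titles, which call them biological replicates without saying what a number shares between groups. The p-values set differences between groups against the spread between replicate libraries within groups, pooled over all 6 groups. E1 with DMSO, whose libraries differed most, was thus not judged by its own spread. With only the groups compared, 588 genes passed the threshold for E1 against WT in DMSO, against 814 in the main fit. The pooled spread does not cover variation between clones. Same-numbered deviations from group means correlated over 0.1 in all 3 pairs for F2 against WT in DMSO alone (0.182, 0.108 and 0.375). Read depth limits low genes only, and the 95% intervals are limma's, from the spread between libraries. With 3 against 3 libraries, an exact permutation test could not go below 0.1, so none was used.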

Additional observations from a re-analysis of the deposited data

Results flagged for a closer look

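6 response differences of the family passed the threshold, which is a test of the difference between lines itself. E2F8 responded less in the clones than in WT, with differences of 2.025 in E1 and 1.492 in F2 on the log2 scale. E2F2 likewise differed by 1.174 in E1 and 1.206 in F2. E2F7 responded more in F2 than in WT, by 2.247, and less in E1 than in F2, by -1.709. These differences share the libraries of WT or of F2.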

How the results depend on the processing

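The 19 values of members past the threshold kept their direction in all fits run. They stayed past the threshold in 190 of 190 fits with another pseudocount (0.5 or 5), filter, scaling, tool, group selection, fold limit or replicate block. Of these, the ones without a fold limit could not fail, since they apply a looser rule to the same fit. Leaving out a library kept them past it in 149 of 150 fits. The exception was TFDP2 with tazemetostat in F2, at -0.998 without F2 tazemetostat replicate 1, which made that count 2 to 3 over the fits without a library. The replicate block kept each count (2, 1 and 3 members with tazemetostat in WT, E1 and F2), and RB1 at -2.076 and -1.681.

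Without a fold limit the counts of members were 8, 7 and 7 with tazemetostat in WT, E1 and F2, 5, 1 and 6 in DMSO (E1 against WT, F2 against WT, E1 against F2), 8 and 6 in tazemetostat (E1 and F2 against WT), and 8, 5 and 3 for the response differences (E1 minus WT, F2 minus WT, E1 minus F2). The counts of targets were then 32 in E1 and 49 in F2 with tazemetostat, and 73 and 72 for the response differences of E1 and F2. This follows from the limit itself. With equal library totals, E2F5 in WT was -0.11 and TFDP1 in F2 was -0.007, and the targets called were 66 in WT, and 50 and 48 for the response differences. Leaving out a library turned the sign of E2F4 with tazemetostat in E1 (-0.059 to 0.152), of E2F5 in WT (-0.005 to 0.088), of TFDP1 in F2 (-0.017 to 0.049) and of the E2F2 response of E1 minus F2 (-0.134 to 0.059), none of which passed, and the cause was not tested. Differences of E2F3, E2F5 and E2F6 under the fold limit also lost an adjusted p under 0.05 in some fits, as did E2F1 with tazemetostat in E1 (0.13 with only the groups compared).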
